A study of Mus musculus with 17 samples.

Results

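The transcripts described here are those of 10 circadian clock genes in the colon of male mice: the activators Arntl and Npas2, the REV-ERB repressors Nr1d1 and Nr1d2, the PAR bZIP output genes Dbp and Tef, the period genes Per1, Per2 and Per3, and the repressor gene Ciart. They were found by the gene name that the array files give to their probes, control probes left out, among 37074 gene names on the array, of which 24854 were tested. Each gene was represented by the probe with the highest mean in the log2 table of the authors. The 10 genes have 23 probes, 8 of the genes have more than 1, and all 10 chosen probes were tested and were well above the background on every one of the 17 arrays.

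The 4 groups were wild-type mice given corn oil (WT CONT, n = 4 arrays) or PCN (WT PCN, n = 4) and mice lacking the pregnane X receptor given corn oil (Pxr-/- CONT, n = 5) or PCN (Pxr-/- PCN, n = 4). PCN, or pregnenolone 16α-carbonitrile, activates the rodent receptor, and it was injected into the abdomen at 100 mg/kg on each of 4 days, dissolved in the corn oil that the control mice received alone. All mice were males with free access to food, killed at ZT6 (6 h after lights on), a time the authors describe as semi-fasted. This was 6 h after the last injection, so every group carries the handling and the oil. The C57BL/6J WT mice were bought at 6 weeks of age and kept for 2 weeks before the experiment, whereas the Pxr-/- mice, backcrossed to C57Bl/6J, came from a colony kept for years in the facility of the study. Genotype and colony of origin therefore cannot be told apart, and the age of the Pxr-/- mice is not given in the sources used here. Each group was allotted 6 mice, and each array here was treated as 1 mouse.

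In the mammalian clock, ARNTL (BMAL1) pairs with CLOCK or its relative NPAS2 and binds E-boxes in the promoters of the Per and Cry genes, the REV-ERB genes, the PAR bZIP genes and Ciart, whose products then close feedback loops. PER, CRY and CIART proteins hold the activator pair down, while the REV-ERB proteins repress Arntl and Npas2 through ROR elements. In tissues with a running clock, the colon among them, transcripts of the activators and of their targets therefore cycle in opposite phases. Whether these sets of genes moved against each other over the groups, and whether PCN or the genotype shifted them, is the question put to the arrays here. All mice were killed at the same time of day, so no cycle was measured and the phase of an oscillation cannot be read from these values.

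Some facts of the arrays touch every result. WT PCN replicate 4 and Pxr-/- PCN replicate 2 were nearly identical over 38646 probes (SD of the log2 differences 0.172), as were WT PCN replicate 3 and Pxr-/- CONT replicate 2 (0.198), while the other pairs of arrays had an SD of 0.297 to 0.616. The 10 clock genes differed by at most 0.14 and 0.18 on the log2 scale within these pairs, and results are given with all 17 arrays and with the 13 arrays that remain without the 4. The probe of Nr1i2, the gene of the receptor, read 11.97 to 12.31 in WT CONT, 11.10 to 12.44 in WT PCN, 10.39 to 11.61 in Pxr-/- CONT and 10.95 to 11.93 in Pxr-/- PCN (log2 signal). The place of this probe relative to the deletion is not given in the sources used here, so it settles no label. Markers of colonocytes were high on all arrays (mean log2 signal of 8 genes 14.53 to 15.11). Markers of pancreas (8 genes, mean log2 signal) were at 17.64 in WT CONT replicate 4, 11.70 and 15.79 in WT PCN replicates 1 and 3, and 15.73 in Pxr-/- CONT replicate 2, and at 6.58 to 7.05 on every other array. In bulk tissue, fewer cells of a type and less RNA per cell cannot be told apart.

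Sequences of the promoters show which of the genes carry the elements named above. RefSeq promoter windows (GRCm38.p6, 250 bases before the start of transcription and 50 after it) were at hand for 9 of the 10 genes, all except Per2. Both strands were searched for the E-box CACGTG, the D-box TTATGTAA or TTACGTAA that PAR bZIP proteins bind, and the ROR element core TAGGTCA or TGGGTCA. In the 250 bases before the start, 6.02% of 32851 promoters hold the E-box, 0.931% the D-box and 5.38% the ROR element core. The stretches with a match are shown 5′ to 3′ on the strand of the gene, with the motif in capitals:
Ciart, chr3:95882242-95882369, minus strand, with 3 E-boxes: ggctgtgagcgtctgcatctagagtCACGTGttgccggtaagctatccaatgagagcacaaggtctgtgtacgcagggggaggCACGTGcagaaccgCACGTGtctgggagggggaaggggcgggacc
Per1, chr11:69098758-69098813, plus strand, with 1 E-box: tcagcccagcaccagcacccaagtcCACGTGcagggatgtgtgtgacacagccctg
Tef, first promoter, chr15:81802521-81802576, plus strand, with 1 E-box: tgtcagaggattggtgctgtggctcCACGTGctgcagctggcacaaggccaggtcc
Tef, second promoter, chr15:81811251-81811306, plus strand, with 1 E-box: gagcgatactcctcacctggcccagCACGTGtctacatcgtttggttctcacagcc
Per3, chr4:151044791-151044895, minus strand, with 2 D-boxes: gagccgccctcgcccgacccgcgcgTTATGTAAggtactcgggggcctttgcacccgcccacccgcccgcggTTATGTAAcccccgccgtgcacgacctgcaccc
Arntl, second promoter, chr7:113207530-113207557, plus strand, with 1 ROR element core: aaggcagaaagTAGGTCAgggacggagg

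The E-boxes of Ciart begin 116, 58 and 44 bases before the start, and the D-boxes of Per3 begin 205 and 158 bases before it. The match of Arntl lies in the transcribed part of its window, beginning at base 31 when the start is counted as base 1, where no match was counted for the shares above. The windows of Nr1d1, Nr1d2, Dbp and Npas2 hold none of these letters, nor do the other listed promoters of Per1 and Arntl, which says nothing of elements outside the windows.

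The probes of Arntl and Nr1d1 are shown because the relation of the other genes to Arntl and the group differences of Nr1d1 carry most of what follows. The array annotation (mm9) places the Arntl probe on the plus strand at chr7:120456978-120457037. It places the Nr1d1 probe on the minus strand at chr11:98630526-98631028, a span of 503 bases for 60 bases of probe, as a probe across an exon junction would have. In RefSeq (GRCm38.p6), Arntl lies at chr7:113178471-113314126 and Nr1d1 at chr11:98767932-98775377.
Arntl probe: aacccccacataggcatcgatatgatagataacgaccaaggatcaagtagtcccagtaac
Nr1d1 probe: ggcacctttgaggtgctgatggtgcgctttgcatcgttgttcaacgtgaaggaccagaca

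Arntl, which codes for the activator BMAL1, read 8.55, 8.96, 9.92 and 8.94 in WT CONT replicates 2 to 5 and 9.53, 8.51, 8.89 and 9.06 in WT PCN replicates 1 to 4 (log2 signal here and below). In the Pxr-/- mice it read 9.27, 8.97, 8.20, 9.24 and 8.88 in CONT replicates 1 to 5 and 9.25, 8.92, 9.15 and 8.18 in PCN replicates 1 to 4. All 4 groups overlapped, and the values spread far more within groups than between them. The group means were 9.09 ± 0.58 (SD, n = 4) in WT CONT, 9.00 ± 0.42 in WT PCN, 8.91 ± 0.43 (n = 5) in Pxr-/- CONT and 8.87 ± 0.48 in Pxr-/- PCN. The highest reading came from the array richest in pancreas transcripts, WT CONT replicate 4.

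Npas2, which codes for a partner of BMAL1, was read at a low signal of 5.60 to 6.46 on the 17 arrays. Its highest value was again in WT CONT replicate 4, at 6.46 against 5.87 to 5.94 in the other arrays of that group. The group means lay between 5.90 ± 0.21 (SD, n = 4) in WT PCN and 6.06 ± 0.27 (n = 4) in WT CONT, a difference inside the spread of either group.

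Nr1d1, which codes for REV-ERBα, was the gene whose groups lay furthest apart relative to their spread. It read 10.89, 11.20, 10.45 and 10.85 in WT CONT replicates 2 to 5 and 10.51, 10.38, 10.14 and 10.23 in WT PCN replicates 1 to 4. In the Pxr-/- mice the readings were 10.32, 10.18, 9.92, 10.00 and 10.52 in CONT replicates 1 to 5 and 10.60, 10.29, 10.58 and 10.62 in PCN replicates 1 to 4. In WT mice the CONT arrays were the higher ones and in Pxr-/- mice the PCN arrays were, each time with an overlap through 1 array. From high to low the means were 10.85 ± 0.31 (SD, n = 4) in WT CONT, 10.52 ± 0.15 (n = 4) in Pxr-/- PCN, 10.31 ± 0.16 (n = 4) in WT PCN and 10.19 ± 0.24 (n = 5) in Pxr-/- CONT. Each group overlapped with its neighbours in that order.

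Nr1d2, which codes for the related repressor REV-ERBβ, showed no such order. It read 11.02, 10.87, 10.41 and 11.00 in WT CONT replicates 2 to 5 and 10.85, 10.62, 11.04, 10.67 and 10.88 in Pxr-/- CONT replicates 1 to 5. Under PCN it read 10.90, 10.89, 10.80 and 10.68 in WT replicates 1 to 4 and 10.52, 10.67, 11.03 and 11.21 in Pxr-/- replicates 1 to 4. The 4 group means lay within 0.05 of each other, from 10.81 ± 0.17 (SD, n = 5) in Pxr-/- CONT to 10.86 ± 0.32 (n = 4) in Pxr-/- PCN.

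Dbp, an output gene that carries the clock to metabolic genes, read 14.54, 14.87, 13.36 and 14.89 in WT CONT replicates 2 to 5 and 14.40, 14.27, 14.01 and 13.75 in WT PCN replicates 1 to 4. In the Pxr-/- mice it read 14.01, 13.90, 14.22, 13.92 and 14.42 in CONT replicates 1 to 5 and 14.13, 13.77, 14.51 and 14.83 in PCN replicates 1 to 4. A single array, WT CONT replicate 4, held the lowest value of all 17 while the other arrays of its group were among the highest, so WT CONT spanned the whole range of the gene. Tef, a relative of Dbp, had its lowest value on the same array (13.75, against 13.99 to 14.90 on the other 16 arrays).

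The period genes, whose products repress the activator pair, behaved alike in this respect. In WT CONT replicate 4, Per1 read 11.18, Per2 9.73 and Per3 9.57, the lowest values of these genes on any of the 17 arrays. On the other arrays, Per1 ranged from 11.70 to 13.14, Per2 from 10.50 to 12.12 and Per3 from 9.76 to 10.75. Their group means differed by 0.49 at most, for Per2 in WT, against SDs of 0.24 to 0.75 within groups.

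Ciart, which codes for the repressor CHRONO, read 7.95, 7.80, 6.28 and 7.87 in WT CONT replicates 2 to 5 and 7.57, 7.89, 7.47 and 7.49 in WT PCN replicates 1 to 4. The Pxr-/- readings were 7.34, 7.40, 8.05, 6.80 and 7.47 in CONT replicates 1 to 5 and 7.37, 7.58, 8.62 and 8.28 in PCN replicates 1 to 4. The groups overlapped, WT CONT replicate 4 was again the lowest array, and the highest were Pxr-/- PCN replicates 3 and 4. Among the 10 further probes of these genes that were well above background on all 17 arrays, 9 correlated with the chosen probe of their gene at an r above 0.8 and the lowest r was 0.77. Second probes of Per1, Per2 and Ciart were well above background on 2, 16 and 15 arrays. They correlated with the chosen probe of their gene at r = 0.40, 0.56 and 0.89. Nr1d1 and Npas2 have no further probe on the array.

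**Figure D1:**
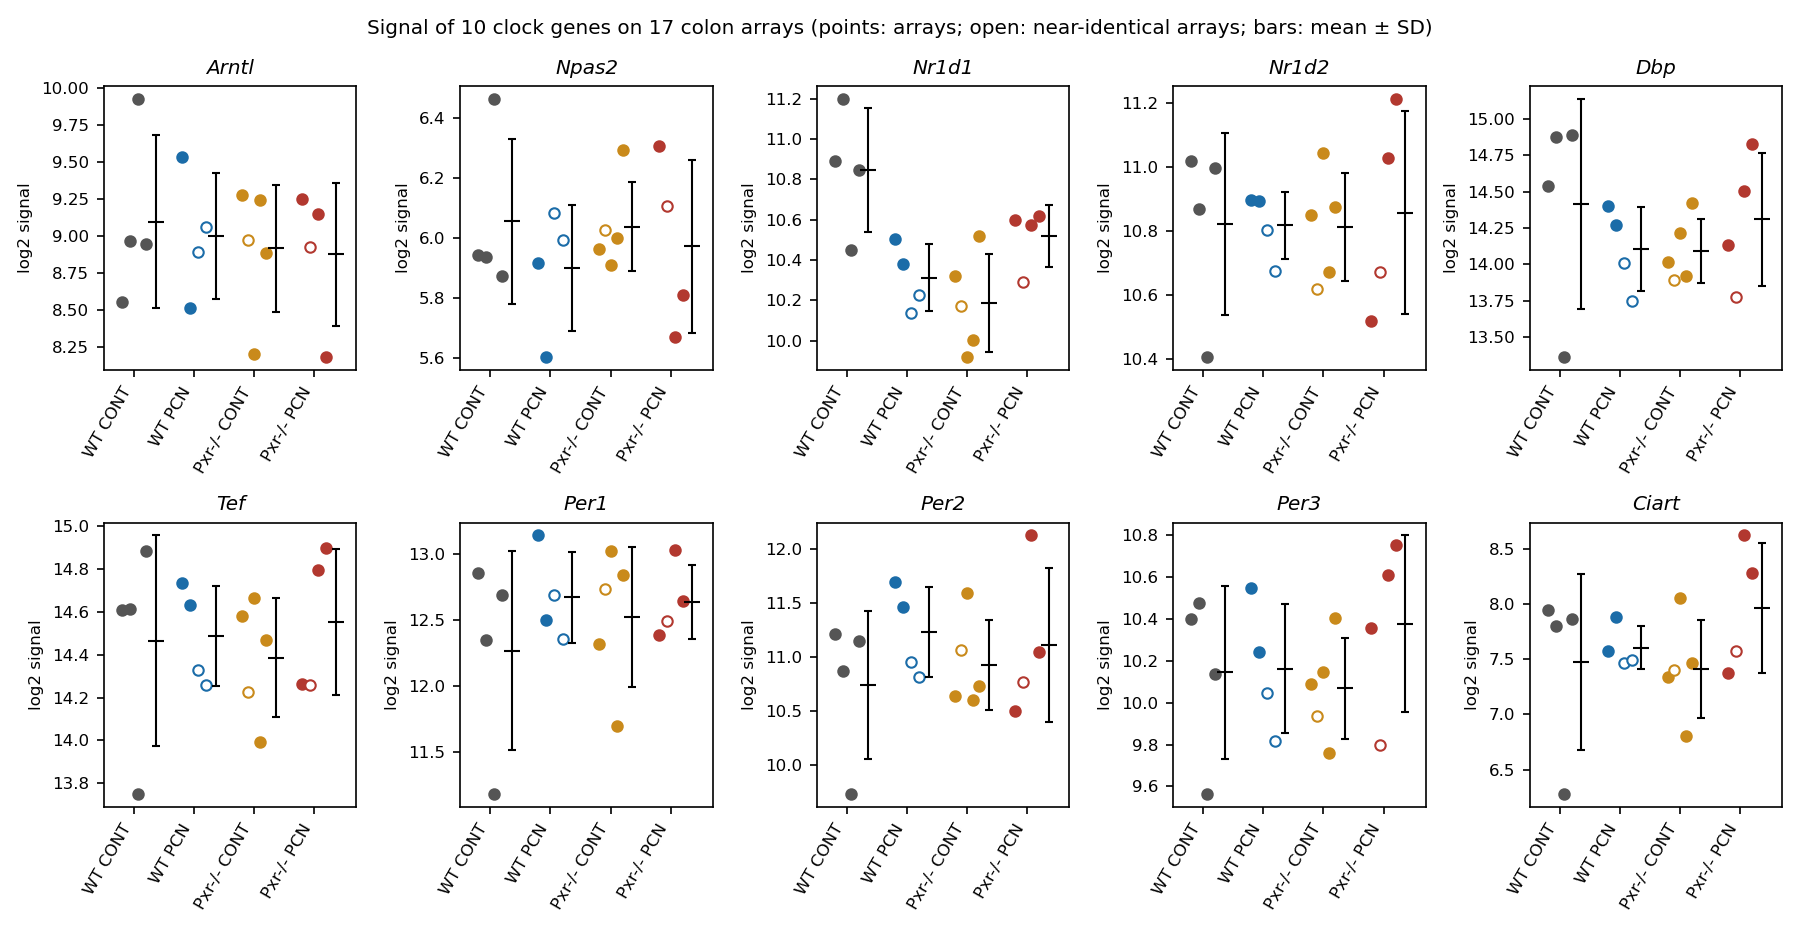
Log2 signal (vertical axes, a separate scale for each gene, not starting at 0) of the 10 clock genes on 17 colon arrays in 4 groups; points are arrays, open points are the 4 near-identical arrays, and bars are the mean ± SD of a group. Nr1d1 is highest in WT CONT, and WT CONT replicate 4 stands apart as the highest point for Arntl (9.92) and the lowest for Dbp (13.36) and Ciart (6.28).

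Differences between groups were tested with limma over 38703 probes, with the wash bath of the arrays as a term. Calling a gene required a fold change above 1.5 together with an FDR no higher than 0.05. None of the 10 clock genes was called in any of 7 comparisons. Over all probes tested, the share called was 0.00517% for PCN in Pxr-/- and for PCN over both genotypes, and 0% in the other 5 comparisons. At an unadjusted p under 0.05, 1 of 10 clock genes passed for PCN in WT (4.66% of all probes did), for the genotype in CONT (12.7%), for PCN in Pxr-/- (7.35%), for the interaction (5.38%) and for the genotype over both treatments (9.16%), and 0 of 10 passed for the genotype in PCN (3.28%) and for PCN over both genotypes (5.91%). In all 5 comparisons with a passing gene, that gene was Nr1d1. Counts of 1 in 10 are near these shares, and nothing is read from them about the clock genes as a set.

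For Nr1d1, the estimate for PCN in WT was -0.51 on the log2 scale (SE 0.16, 95% interval -0.84 to -0.17, adjusted p = 0.956 by limma), a level 1.42-fold lower under PCN. In Pxr-/- mice it was 0.34 (SE 0.15, interval 0.032 to 0.65, adjusted p = 0.647 by limma), 1.27-fold higher. The test of the difference between these responses, the interaction, gave 0.85 (SE 0.21, interval 0.40 to 1.30, unadjusted p = 0.0012 and adjusted p = 0.848 by limma). Without the treatment, Pxr-/- mice differed from WT by -0.67 (SE 0.15, interval -0.98 to -0.36, unadjusted p = 0.00038 and adjusted p = 0.184 by limma), 1.59-fold lower. Under PCN the genotypes differed by 0.18 (SE 0.16, interval -0.15 to 0.51). These estimates share control arrays, the WT CONT group entering the PCN comparison in WT, the genotype comparison in CONT and the interaction.

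The near-identical arrays bear on these values because the pair of them labelled WT PCN were the lowest WT readings of Nr1d1 (10.14 and 10.23). On the 13 arrays without them, PCN in WT gave -0.40 for Nr1d1 (SE 0.20, interval -0.85 to 0.048) with 2 arrays left in WT PCN, and PCN in Pxr-/- gave 0.40 (SE 0.18, interval -0.0017 to 0.80). The genotype difference in CONT stayed at -0.65 (SE 0.17, interval -1.02 to -0.29, adjusted p = 0.217 by limma) and the interaction at 0.80 (SE 0.27, interval 0.20 to 1.40, adjusted p = 1.000 by limma). Within wash bath 1, Pxr-/- CONT minus WT CONT was -1.08 (2 against 2 arrays), and within wash bath 2 it was -0.31 (3 against 2 arrays). PCN in WT gave -0.80 in wash bath 1 (3 against 2 arrays) and -0.14 in wash bath 2 (1 against 2 arrays). The sign was the same in both baths and the size was not. Markers of smooth muscle moved against Nr1d1 over the 13 arrays (r = -0.59, a description). Their mean log2 signal (6 genes) was 15.11 to 15.86 in WT CONT, 15.28 to 15.72 in WT PCN, 15.22 to 15.84 in Pxr-/- CONT and 14.96 to 15.44 in Pxr-/- PCN. Markers of enteric neurons (8 genes, r = -0.51) read 9.98 to 10.39, 10.04 to 10.53, 10.04 to 10.57 and 9.69 to 10.13 in the same order of groups. Adipocyte markers (6 genes, r = 0.10) read 8.94 to 10.59, 7.75 to 9.32, 8.19 to 9.85 and 7.08 to 8.35, highest in WT CONT with overlap. The part of these tissues in the result was not tested.

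The other 9 genes gave intervals that all included 0 in the 7 comparisons with 17 arrays. Their estimates ran from -0.33 for Dbp (genotype in CONT, SE 0.29) to 0.52 for Ciart (PCN in Pxr-/-, SE 0.33) and 0.52 for Dbp (interaction, SE 0.42). The intervals were wide, and for PCN in WT that of Per2 reached from -0.37 to 1.21 and that of Arntl from -0.67 to 0.64. Arntl differed by -0.02 for PCN in WT (SE 0.31) and by -0.01 for PCN in Pxr-/- (SE 0.29). For a gene this variable, differences inside such intervals were not detectable with this number of arrays.

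The estimates for Dbp depended on which arrays were left out. Without WT CONT replicate 4, the Dbp readings of WT CONT (14.54, 14.87 and 14.89) lay above all those of WT PCN (at most 14.40) and of Pxr-/- CONT (at most 14.42). The estimates for Dbp were then -0.64 for PCN in WT (SE 0.21, adjusted p = 0.437 by limma) and -0.73 for the genotype in CONT (SE 0.20, adjusted p = 0.119 by limma), in place of -0.30 and -0.33 with all 17 arrays. On the 13 arrays without the near-identical ones, which keep this array, they were -0.08 (SE 0.37) and -0.27 (SE 0.31). Without WT CONT replicate 4, those of Nr1d1 were -0.65 (SE 0.13, adjusted p = 0.365 by limma) and -0.84 (SE 0.13, adjusted p = 0.0607 by limma). The estimates for Arntl stayed small, at 0.20 (SE 0.29) and 0.04 (SE 0.28). No clock gene was called without this array either.

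With 13 arrays, 0 of the 10 genes were called in any comparison either. The shares of all probes called were then 0.0491% for PCN in WT mice and 0.0517% in Pxr-/- mice, 0% for the genotype in CONT and 0.0207% in PCN, 0.00258% for the interaction, 0.194% for PCN over both genotypes and 0.155% for the genotype over both treatments. In 3 of these comparisons there was 1 of 10 clock genes at an unadjusted p under 0.05, namely in the genotype in CONT (10.1% of all probes) and the interaction (2.95%), both through Nr1d1, and PCN over both genotypes (7.82%) through Per2. The estimate for Per2 was 0.63 (SE 0.28, interval 0.0050 to 1.26, adjusted p = 0.634 by limma), against 0.29 (SE 0.26) with all 17 arrays. In the same comparison Per3 was at 0.36 (SE 0.17), Ciart at 0.50 (SE 0.31) and Npas2 at -0.23 (SE 0.12), and the adjusted p-values by limma were 0.653, 0.767 and 0.71.

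**Figure D2:**
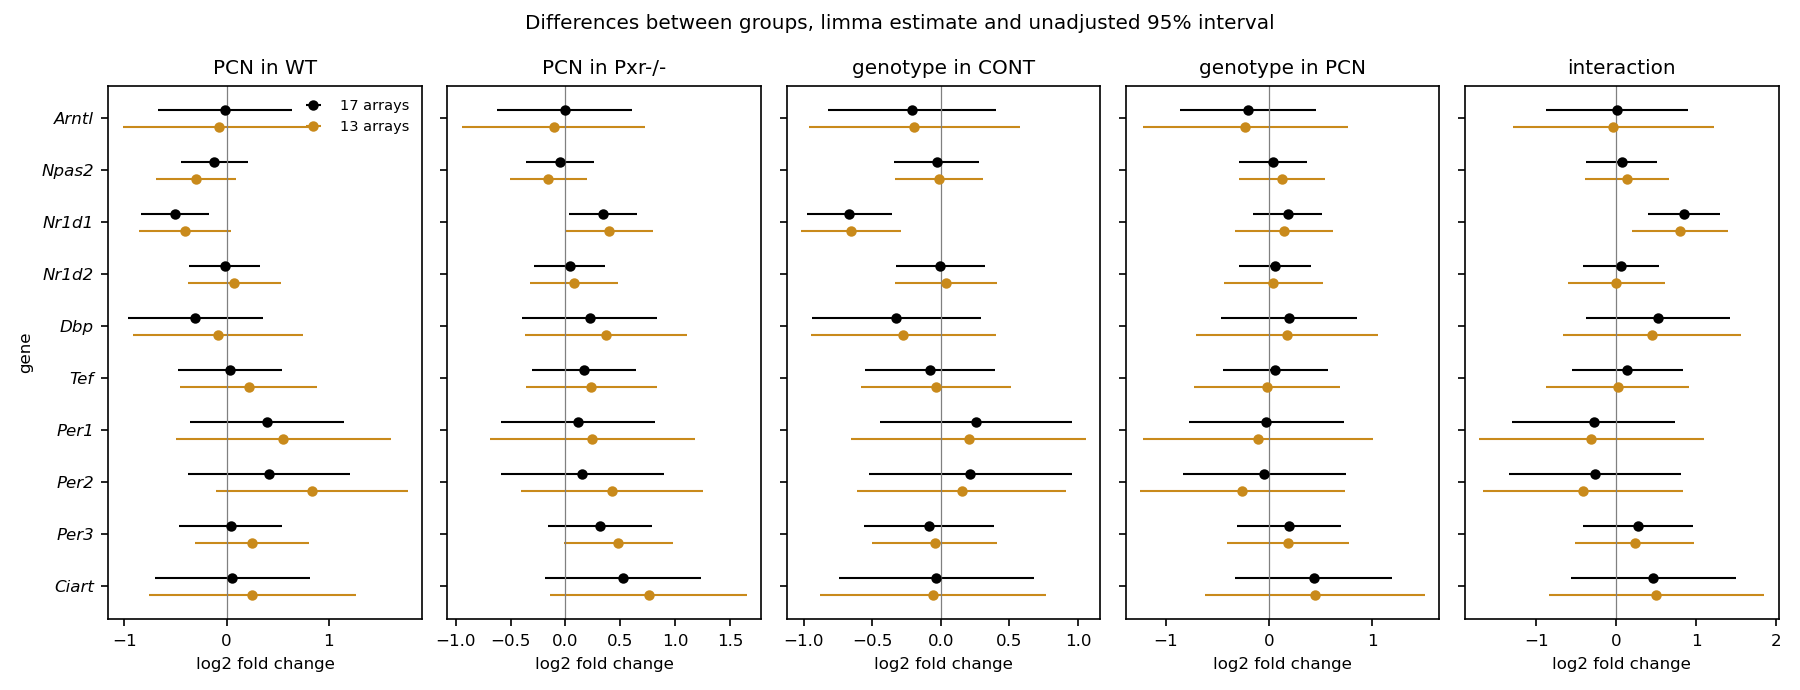
Estimated log2 fold change (horizontal axes) of each clock gene in 5 comparisons, with its unadjusted 95% interval from limma, for all 17 arrays (black) and for the 13 arrays without the near-identical ones (yellow). Nr1d1 is the gene whose 17-array intervals leave out 0, at -0.51 (PCN in WT), 0.34 (PCN in Pxr-/-), -0.67 (genotype in CONT) and 0.85 (interaction).

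Opposition between the activators and the other 8 genes was first described array by array. For each array, the mean deviation of the 8 genes from their own 17-array means was set against that of Arntl and Npas2. The deviations had opposite signs on 15 of 17 arrays, and on 11 of the 13 without near-identical pairs. Their correlation was r = -0.70 over 17 arrays (Spearman's rho = -0.63) and r = -0.72 over 13 arrays (rho = -0.61), a description of values that share libraries and a common normalization. The exceptions were WT PCN replicate 1 and Pxr-/- CONT replicate 5, on which both sets were above their means. WT CONT replicate 4 was the extreme array on both measures, at -0.82 for the 8 genes and 0.71 for the activators. The correlation was not computed without that array. Gene by gene over the 13 arrays, every negative r with Arntl was nearer 0 once that array was left out. It went from -0.77 to -0.64 for Nr1d2, from -0.70 to -0.52 for Ciart and from -0.58 to -0.32 for Dbp.

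The 8 genes minus the activators gave 0.51, 0.25, -1.53 and 0.35 on the log2 scale in WT CONT replicates 2 to 5 and 0.03, 0.55, -0.11 and -0.28 in WT PCN replicates 1 to 4. In the Pxr-/- mice it gave -0.28, -0.17, 0.60, -0.62 and -0.05 in CONT replicates 1 to 5 and -0.44, -0.24, 0.57 and 0.86 in PCN replicates 1 to 4. Every group held arrays on both sides of 0, WT CONT through replicate 4 alone, and the groups overlapped. The group means were -0.11 ± 0.96 (SD, n = 4) in WT CONT, 0.05 ± 0.36 (n = 4) in WT PCN, -0.10 ± 0.45 (n = 5) in Pxr-/- CONT and 0.19 ± 0.63 (n = 4) in Pxr-/- PCN.

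As differences of these means, PCN gave 0.15 in WT and 0.29 in Pxr-/- mice, and the genotype gave 0.0027 in CONT and 0.14 in PCN, all smaller than the SD within the groups compared. Without the 4 near-identical arrays the same differences were 0.40, 0.42, 0.020 and 0.041. Without WT CONT replicate 4 the difference for PCN in WT was -0.32 and that for the genotype in CONT was -0.47, so this 1 array set the sign of the former and the size of the latter. No test was made of this difference.

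**Figure D3:**
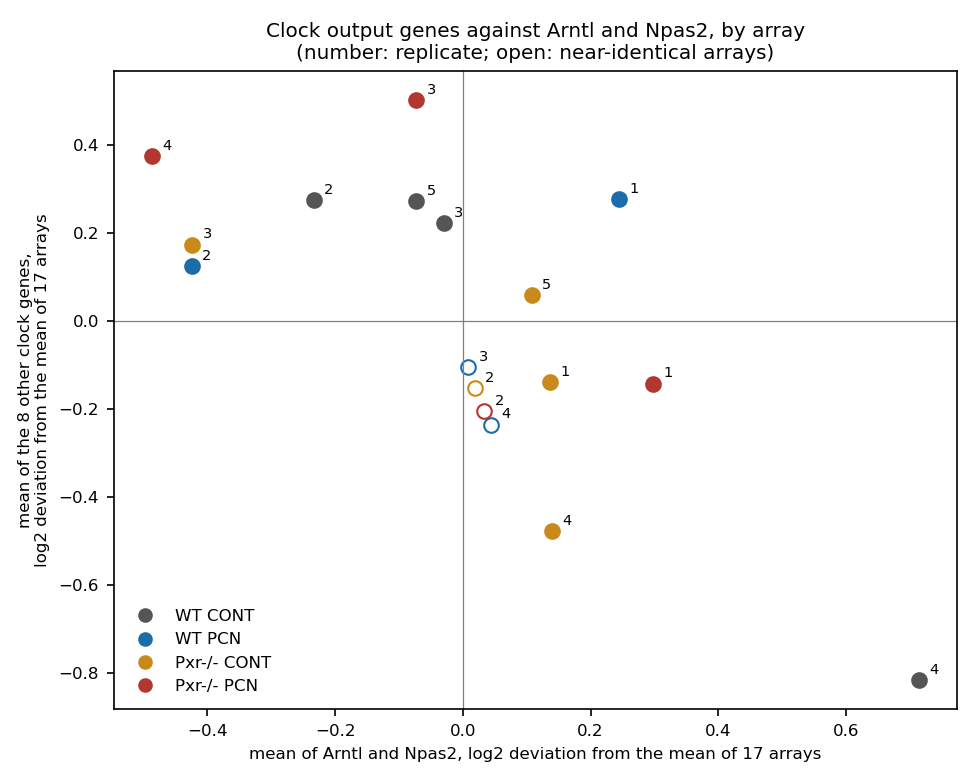
Mean log2 deviation of Nr1d1, Nr1d2, Dbp, Tef, Per1, Per2, Per3 and Ciart (vertical axis) against that of Arntl and Npas2 (horizontal axis), each gene taken relative to its mean over 17 arrays; each point is an array with its replicate number, coloured by group, and open points are the near-identical arrays. On 15 of 17 arrays the deviations have opposite signs, all 4 groups are mixed along the trend, and WT CONT replicate 4 lies alone at the lower right.

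Gene by gene, the relation to Arntl was fitted with limma over 38702 probes, on the 13 arrays without near-identical pairs and with group and wash bath as terms, so that it rests on mice of the same group. The slope was below 0 for 8 of the 9 genes, and above 0 for Npas2 (0.19, SE 0.12). An unadjusted p under 0.05 was reached by 4 of 9, all with slopes below 0, where 4.74% of all probes reached it. These were Nr1d2 (-0.35, SE 0.11), Dbp (-0.56, SE 0.22), Tef (-0.47, SE 0.18) and Ciart (-0.75, SE 0.26), in log2 units per log2 unit of Arntl. None passed the FDR threshold, which 0% of all probes did, and the smallest adjusted p of the 9 genes by limma was 0.955. With all 17 arrays 6 of 9 had an unadjusted p under 0.05, against 4.9% of all probes.

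One array carried much of this relation. Without WT CONT replicate 4, 7 of 9 slopes were still below 0, but 0 of 9 had an unadjusted p under 0.05, where 11.4% of all probes did, and 0% of all probes passed the FDR threshold. The slope of Nr1d2 was then -0.28 (SE 0.12), that of Dbp -0.24 (SE 0.15), that of Tef -0.27 (SE 0.16) and that of Ciart -0.50 (SE 0.26). On that array, pancreas markers were at their highest, and over the 13 arrays they correlated with Arntl at r = 0.69 and with Dbp at r = -0.62. Without it these correlations were 0.51 and -0.02, with WT PCN replicate 1 (11.70) the only array left with raised pancreas markers. On the same arrays, distal colon markers (5 genes) correlated with Arntl at r = 0.62 and with Dbp at r = 0.10. Colonocyte markers (8 genes) were at 0.56 and -0.43. The part of pancreas transcripts and of these other markers in the relation was not tested. Of the 4 arrays highest in pancreas markers, WT PCN replicate 3 and Pxr-/- CONT replicate 2 were already absent from the 13. With WT CONT replicate 4 and WT PCN replicate 1 also left out, Dbp correlated with Arntl at r = -0.35 and Ciart at r = -0.53.

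As plain correlations over the 13 arrays, Nr1d2 was closest to a mirror of Arntl. Its r with Arntl was -0.77 (rho = -0.73, two-sided permutation p = 0.00198 and 0.00672), and 0.212% of 24991 genes had an r as low or lower. It is 1 of 9 such relations computed, and their p-values were not adjusted over these genes, which were chosen with earlier results of the same data known. Leaving out the arrays farthest from the median of Arntl, WT CONT replicate 4 (9.92) and Pxr-/- PCN replicate 4 (8.18), r was -0.51 for Nr1d2. Within the wash baths it was -0.59 (bath 1, 6 arrays) and -0.82 (bath 2, 7 arrays). Both of the farthest arrays were in bath 2, so bath 1 leaves them out as well. The sign held in each of these subsets.

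Ciart followed, with r = -0.70 (rho = -0.74, two-sided permutation p = 0.00772 and 0.00581), and 0.640% of genes at or below it. It was at -0.43 without the farthest arrays and at -0.29 and -0.87 within baths 1 and 2. Tef was at r = -0.61 (rho = -0.51, permutation p = 0.0272 and 0.0784) and Dbp at r = -0.58 (rho = -0.53, permutation p = 0.0390 and 0.0675). They dropped to -0.23 and -0.15 without the farthest arrays, so much of their relation to Arntl rests on those arrays. In bath 1, which holds neither of the farthest arrays, Tef was still at -0.45, and in bath 2 at -0.72. Dbp was at 0.019 in bath 1 and at -0.81 in bath 2, which is no relation in the former.

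The period genes had r of -0.53 (Per1), -0.46 (Per2) and -0.47 (Per3) with Arntl, and of 24991 genes 4.78%, 7.73% and 7.11% were as low. Without WT CONT replicate 4 these r were -0.22, -0.17 and -0.18, and without the farthest arrays they were -0.25, -0.23 and 0.09. Much of the relation of the period genes to Arntl therefore rests on those arrays. In bath 1, which holds neither of them, r was -0.55 for Per1, -0.26 for Per2 and -0.04 for Per3. Against Npas2 in place of Arntl, the lowest r was that of Per2 (-0.81), followed by Ciart (-0.76), Nr1d2 (-0.75) and Tef (-0.74). Without WT CONT replicate 4, Per2 was still at -0.71 with Npas2, while Dbp was at -0.26. Npas2 itself correlated with Arntl at r = 0.54 (rho = 0.58), and at 0.31 without WT CONT replicate 4.

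Nr1d1 showed no such relation. Its slope on Arntl was -0.10 (SE 0.15, interval -0.44 to 0.25) and its r was 0.017 (rho = -0.17, permutation p = 0.958 and 0.577), in the middle of all genes, of which 46.7% had an r at least as high. Within the wash baths, r was 0.20 and -0.44. The pairs among the 8 genes other than the activators were all positively correlated over 13 arrays (28 of 28, median r = 0.78). The 21 pairs without Nr1d1 had r from 0.57 to 0.90, and from 0.24 to 0.83 without WT CONT replicate 4, whereas the lowest pair with Nr1d1 was at 0.00076. Genes in 1 sample share its library, so these pairs are not independent.

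**Figure D4:**
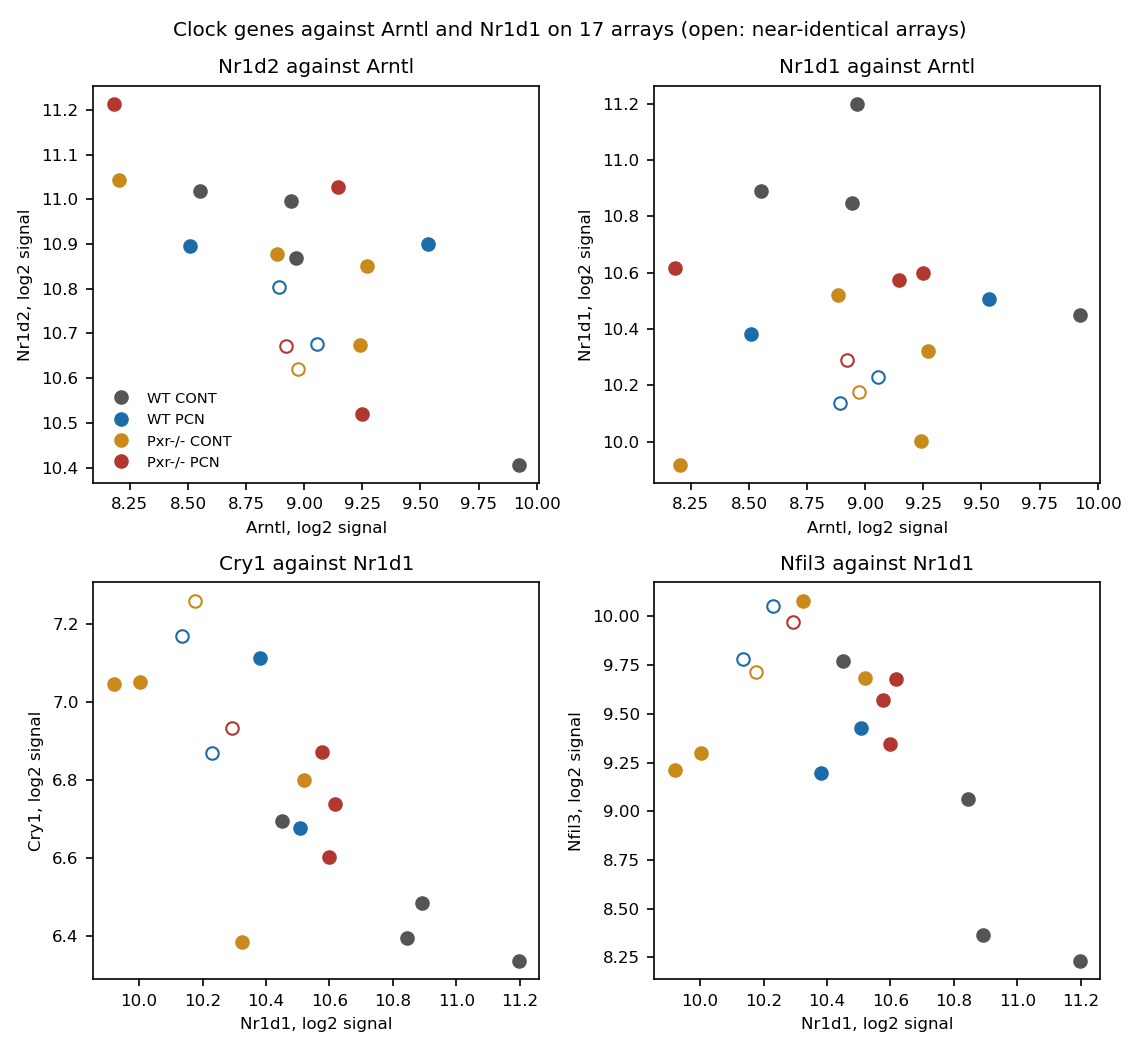
Log2 signal of Nr1d2 and Nr1d1 against that of Arntl (upper panels) and of Cry1 and Nfil3 against that of Nr1d1 (lower panels), on 17 arrays coloured by group, with the near-identical arrays open. Nr1d2 declines with Arntl (r = -0.77 over 13 arrays) and Nr1d1 does not (r = 0.017), while Cry1 declines with Nr1d1 (r = -0.74 over 13 arrays).

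Further genes of the clock were taken from 3 lists of 10 other core clock genes, 5 kinases and ubiquitin ligase parts and 6 clock-controlled genes, of which 9, 5 and 6 were tested. None of these 20 genes was called in any of the 7 comparisons, and the counts at an unadjusted p under 0.05 were 2 for PCN in WT mice and 1 in Pxr-/- mice, 3 for the genotype in CONT and 0 in PCN, 1 for the interaction, 1 for PCN over both genotypes and 0 for the genotype over both treatments. Over all probes the shares were, in the same order, 4.66%, 7.35%, 12.7%, 3.28%, 5.38%, 5.91% and 9.16%, so counts of 0 to 3 in 20 are read as no result about these genes. Cry1 and Nfil3 were among those of the genotype comparison in CONT. The medians of the 20 genes lay close to 0, at 0.0053 for PCN in WT and -0.0097 for the genotype in CONT, where the medians of all probes were -0.00013 and 0.0083.

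Cry1, a repressor whose gene is itself held down by REV-ERB proteins, read 6.48, 6.34, 6.69 and 6.40 in WT CONT replicates 2 to 5, the group in which Nr1d1 was highest. It read 6.68, 7.11, 7.17 and 6.87 in WT PCN replicates 1 to 4, and 6.38 to 7.26 and 6.60 to 6.93 in Pxr-/- CONT and PCN. The WT CONT arrays lay low, with overlap. For PCN in WT the estimate was 0.44 (SE 0.16, adjusted p = 0.956 by limma), for the genotype in CONT 0.45 (SE 0.15, adjusted p = 0.274 by limma) and for the interaction -0.58 (SE 0.21, adjusted p = 0.848 by limma).

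Nfil3, which codes for a repressor at D-boxes and is likewise a REV-ERB target, read 8.37, 8.23, 9.77 and 9.06 in WT CONT replicates 2 to 5 against 9.19 to 10.06 in WT PCN, 9.21 to 10.08 in Pxr-/- CONT and 9.35 to 9.97 in Pxr-/- PCN. Of the WT CONT arrays 3 lay below every array of the other groups and replicate 4 lay among them. The estimates were 0.84 for PCN in WT (SE 0.28, adjusted p = 0.956 by limma) and 0.71 for the genotype in CONT (SE 0.26, adjusted p = 0.320 by limma). On the 13 arrays without the near-identical ones, Nfil3 was at 0.45 and 0.71. Over 13 arrays, Cry1 correlated with Nr1d1 at r = -0.74 and Nfil3 at r = -0.56, and over 17 arrays at -0.78 and -0.63, in part through the same group differences.

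Bhlhe40, which competes at E-boxes, differed by 0.27 for PCN in Pxr-/- (SE 0.13, adjusted p = 0.675 by limma), and by 0.44 on the 13 arrays (adjusted p = 0.494 by limma). Clock, the partner of BMAL1, correlated with Arntl at r = 0.60 over 13 arrays and 0.66 without WT CONT replicate 4, and the PAR bZIP gene Hlf at -0.77 and -0.69. Clock was at -0.29 for PCN in WT (SE 0.16) and Rora, which codes for an activator at ROR elements, was at -0.23 for PCN in Pxr-/- (SE 0.12), and neither had an unadjusted p under 0.05.

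Over the whole array, the genes most like Arntl and Dbp were found by Pearson's r over the 13 arrays among 24992 genes, 1 probe each and the 10 clock genes left out. With Arntl, the highest r was that of Gm9530 (0.89), and 4 transcripts without a gene symbol followed at 0.82 to 0.86. The lowest were Zfp553 (-0.88), Polr2e (-0.88) and Scamp3 (-0.87), beside 2 transcripts without a symbol at -0.89. With Dbp, M6pr (0.91) and Mreg (0.88) were highest beside 3 transcripts without a symbol at up to 0.93. The lowest were Ier5 (-0.91), Rhod (-0.87), 1500015A07Rik (-0.87), Gm30732 (-0.86) and P2rx1 (-0.85). Over 17 arrays, Gm9530, Zfp553, Polr2e and Scamp3 were at 0.83, -0.71, -0.75 and -0.80 with Arntl. With Dbp, M6pr and Mreg were then at 0.86 and 0.85, and the lowest 5 at -0.74, -0.70, -0.49, -0.46 and -0.83 in the order above. These genes are the extremes of 24992 over few arrays, no test was made of them, and nothing is read from them.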

How the data were processed

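RNA of the colon was labelled with Cy3 and hybridized to 1-colour Agilent arrays of mouse genes. The authors deposited the scanner output (Agilent Feature Extraction 10.10.1.1), which gives the median intensity of each spot as scanned, with nothing yet made comparable across arrays. A second file of the authors holds log2 values of 36695 probes that they filtered, corrected for the wash bath and normalized with CrossNorm, which is not described closely enough to repeat. Here the intensity of 59305 spots, controls and outliers left out, was put on the log2 scale, quantile-normalized and averaged per probe (56605 probes). Quantile normalization stands in for CrossNorm. Tests covered the 38703 probes that 4 or more arrays read well above background.

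Samples were grouped by the submitters' labels. A model with group and wash bath (2 baths) was fitted with limma 3.58.1 (R 4.3.3) to the 17 arrays together and adjusted by Benjamini-Hochberg. A call required a fold change above 1.5 and an FDR no higher than 0.05. Slopes on Arntl were fitted with limma on 13 arrays, and correlations were given 100000 two-sided permutations. Fits were tested on simulated data. The number of arrays limits the precision: an array read 61.0% to 69.7% of its probes well above background, and the median background was 20.0 to 28.0 units, and no spot of the clock genes was saturated.

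The clock genes and all gene lists were chosen with earlier results of these data known. Named genes are the 10 clock genes, those of 3 clock lists with an unadjusted p under 0.05 or the smallest p, and the 5 highest and 5 lowest in correlation with Arntl and with Dbp. One gene that this rule names is not reported here. Probes were named by accession through RefSeq (GRCm38.p6) where it held them (32994 probes). Whether arrays came from separate extractions is not stated beyond the labels, and p-values measure the spread between arrays. Alternatives were the authors' log2 values, other scalings, filters, blocks, array weights, thresholds, probes and arrays left out. The exclusion of the 4 arrays highest in pancreas markers was chosen after seeing the data. Leaving out each array in turn was planned, and WT CONT replicate 4 was singled out from those fits after seeing the data.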

Additional observations from a re-analysis of the deposited data

Results flagged for a closer look

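Single arrays stood apart from the rest of their group in 4 of 44 sets of values examined (the 10 clock genes and their summary difference in 4 groups). For a single set chance alone gives about 1 in 20. These sets share arrays, and the summary difference is made of the same genes, so no excess is read from the count. The log2 signal of Nr1d1 in Pxr-/- PCN replicate 2, a near-identical array, was 10.29, and the nearest other array of the group was at 10.58. In WT CONT replicate 4, Npas2 was high at 6.46 (nearest array 5.94), Ciart was low at 6.28 (nearest array 7.80), and the 8 other genes minus Arntl and Npas2 were low at -1.53 (nearest array 0.25). This array also has the highest pancreas markers, at a mean log2 signal of 17.64, and the part of pancreas transcripts in its clock values was not tested.

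The estimates of Nr1d1 for PCN had opposite signs in the genotypes, at -0.51 in WT and 0.34 in Pxr-/- mice, with a difference of 0.85 on the log2 scale (SE 0.21, unadjusted p = 0.0012 by limma). It did not pass the correction over all probes (adjusted p = 0.848 by limma).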

How the results depend on the processing

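No clock gene was called in any comparison under the alternatives run, with 1 exception. With array weights, Nr1d1 was called for the genotype in CONT, which makes 1 gene in place of 0 (-0.74, adjusted p = 0.0129 by limma, in a range of 0.0129 to 0.759 over the alternatives), in a fit that called 552 probes in all, and the cause was not tested. Leaving out each array in turn gave 0 clock genes called in every comparison and for the slope on Arntl. Nr1d1 then ranged from -0.84 to -0.53 for the genotype in CONT (adjusted p 0.0607 to 0.423 by limma), from -0.65 to -0.34 for PCN in WT and from 0.69 to 1.00 for the interaction, the far ends set by WT CONT replicates 4 and 3. The difference between the 8 genes and the activators ranged, with each array left out, from -0.32 to 0.36 for PCN in WT, 0.069 to 0.50 for PCN in Pxr-/-, -0.47 to 0.21 for the genotype in CONT and -0.082 to 0.35 for the genotype in PCN.

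With the replicate number as a block beside the wash bath, 0 clock genes were called in all 7 comparisons, and Nr1d1 was at -0.69 for the genotype in CONT. The labels do not say that the numbers pair the arrays. Over 22 pairs with the same number, deviations from the group means correlated at -0.31 to 0.50, and 10 pairs exceeded 0.1. Pairs with different numbers were not set beside them, so these values do not decide whether the numbers mark pairs. The r of Dbp with Arntl was 0.019 within wash bath 1 in place of -0.58. Both arrays farthest from the median of Arntl, WT CONT replicate 4 and Pxr-/- PCN replicate 4, were in bath 2, so bath 1 also leaves them out. The cause was not tested. With slides as a fixed block, Per3 was at 0.29 (SE 0.26) for the genotype in CONT in place of -0.09. Without the 4 arrays highest in pancreas markers, Per1 for PCN in WT was at -0.20 in place of 0.40. With 4 or 5 arrays per group, and 2 left in WT PCN without the near-identical ones, small changes of these genes may go uncalled.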

Other observations

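Genes that respond to glucocorticoids, hormones that also set the time of peripheral clocks, were on a list of 6, all tested. For PCN over both genotypes, 2 of 6 had an unadjusted p under 0.05 where 5.91% of all probes did, and 0 were called. Both were positive, whereas Dusp1 (0.32 in WT and -0.32 in Pxr-/- mice), Tsc22d3 (0.33 and -0.16) and Zbtb16 (-0.28 and 0.55) had opposite signs in the genotypes. Mt2, a metallothionein gene, read 13.85 to 15.51 in WT CONT and 14.63 to 15.72 in WT PCN, and 13.56 to 14.77 in Pxr-/- CONT and 15.13 to 15.95 in Pxr-/- PCN (log2 signal). The Pxr-/- groups did not overlap for Mt2, and the WT groups did. Its estimate over both genotypes was 1.13 (SE 0.20, adjusted p = 0.102 by limma). Fkbp5, which codes for a co-chaperone of the glucocorticoid receptor, read 11.00 to 11.99 in WT CONT, 11.96 to 12.65 in WT PCN, 11.40 to 12.28 in Pxr-/- CONT and 12.24 to 12.93 in Pxr-/- PCN. Its estimate over both genotypes was 0.72 (SE 0.16, adjusted p = 0.249 by limma). Per1 also carries a glucocorticoid response in many tissues, and its estimate in the same comparison was 0.25 (SE 0.24).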
